A study of Mus musculus with 32 samples.

Results

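The genes described here are the potassium channel subunits and their close partners, defined as every probe of the array whose gene symbol begins with Kcn. There were 90 such probes for 90 genes, 1 probe each, among 22206 probes and 19505 named genes. The arrays measured RNA of male C57BL/6J mice, 6 to 12 weeks old and 20 to 25 g at the start, after photothrombosis, in which a light-activated dye closes small vessels and leaves a focal ischaemic lesion. One model placed the lesion in the cerebrum and the other in the spinal cord, and snap-frozen tissue of the same region was taken. Each model had 4 groups of 4 arrays, namely control and days 1, 3 and 7 after the lesion, so that 32 arrays fell into 8 groups. All animals were wild type, with no transgene or drug named in the labels. Sham surgery of the controls is not mentioned, and no label states that every array is a separate animal, so p-values here reflect only how these arrays vary.

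Potassium channels set the resting potential, end action potentials and return the potassium that active neurons release. Voltage-gated (Kv) channels are assembled from pore-forming subunits, silent subunits that work only beside another Kv subunit, and auxiliary proteins such as the KChIP (Kcnip), beta (Kcnab) and Kcne subunits. Inward rectifiers (Kcnj) hold the resting potential, and in astrocytes they carry most of the uptake of extracellular potassium. Tandem pore domain channels (Kcnk) give the leak current, and calcium-activated (Kcnn) and sodium-activated (Kcnt) channels couple the current to ion entry. The genes were grouped by the cells they are best known from: 40 neuronal, 3 glial, 4 immune, 5 vascular, 5 epithelial and 33 not grouped. The name prefix also takes in Kcnq1ot1, a noncoding RNA that runs antisense to Kcnq1, and Kcnrg, a regulator of Kv channels, neither of which is a channel.

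The deposited values are centred log2 values, in which 0 is near the middle of a gene's own arrays, so they give differences of a gene between groups and no level that could be set against another gene. Controls and day 1 had been centred together, and days 3 and 7 apart, so each gene's offset for days 3 and 7 was rebuilt against the 8 controls. Where that offset enters, as it does for day 3 or 7 against control, a change was tested against the width of the offset's range and not against 0, which is stricter. It drops out of day 1 against control and of the cord change minus the cerebral change. A gene was called at an adjusted p under 0.05 over all 19505 genes. Tissue markers went with the labels: 8 of 8 forebrain genes were lower and 11 of 13 trunk Hox genes higher in cord than in cerebral controls. Of the arrays, the 1st of cord day 3 had the lowest weight, 0.225, in a limma estimate of array quality. Skeletal muscle markers averaged 3.75, 3.19, 1.24 and 0.28 on the 4 cord control arrays and at most 1.20 on any other array. Thalamic markers averaged 0.42, -0.14, -0.92 and -0.46 on the 4 cerebral control arrays and 0.38 to 0.70 on the 12 cerebral lesion arrays. Hypothalamic and pituitary markers averaged 0.60 to 1.44 on the cerebral controls, -0.07 to 0.40 at day 1, 0.23 to 0.47 at day 3 and 0.39 to 1.82 at day 7.

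For 3 genes the promoter is printed, because the results turn on them: Kcnn4 showed the largest rise, Kcnj10 is the main astrocyte channel, and Kcnh4 had the largest cerebral falls at days 3 and 7. They were picked after their values had been seen. The sequences come from RefSeq on GRCm38.p6, run 5′ to 3′ from 250 bases before to 50 bases after the transcription start, and have CG pairs in capitals. Kcnn4 lies at chr7:24370013-24370312 on the plus strand, Kcnj10 at chr1:172340960-172341259 on the plus strand and Kcnh4 at chr11:100759729-100760028 on the minus strand.
Kcnn4: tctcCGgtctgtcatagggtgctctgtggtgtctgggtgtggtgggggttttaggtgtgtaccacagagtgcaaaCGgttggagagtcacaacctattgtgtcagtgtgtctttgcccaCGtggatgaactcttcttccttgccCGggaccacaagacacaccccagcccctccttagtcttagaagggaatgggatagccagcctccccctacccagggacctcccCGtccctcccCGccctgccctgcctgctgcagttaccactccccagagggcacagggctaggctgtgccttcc
Kcnj10: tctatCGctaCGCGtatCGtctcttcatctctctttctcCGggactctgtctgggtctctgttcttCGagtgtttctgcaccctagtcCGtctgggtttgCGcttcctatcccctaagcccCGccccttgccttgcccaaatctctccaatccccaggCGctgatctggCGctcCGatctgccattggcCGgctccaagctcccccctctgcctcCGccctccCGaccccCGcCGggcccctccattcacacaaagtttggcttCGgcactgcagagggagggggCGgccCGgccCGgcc
Kcnh4: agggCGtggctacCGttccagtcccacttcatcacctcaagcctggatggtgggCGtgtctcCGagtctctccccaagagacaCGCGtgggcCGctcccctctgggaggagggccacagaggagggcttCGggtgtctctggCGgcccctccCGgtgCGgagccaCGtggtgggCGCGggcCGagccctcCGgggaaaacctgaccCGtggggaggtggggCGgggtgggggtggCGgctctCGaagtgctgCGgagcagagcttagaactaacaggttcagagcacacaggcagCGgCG
The Kcnn4 promoter holds 6 CG pairs, more than 43.6% of the 32851 promoters in the table, whose median is 7. Kcnj10 holds 21 and Kcnh4 23, more than 75.2% and 78.5% of them. The median of the 94 promoters listed for 69 of the 90 genes was 9.

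In the cerebrum, the potassium channel genes moved both ways at day 1 and mostly down at days 3 and 7. At day 1, 7 rose and 8 fell, against a background of 17.1% of all genes called, 8.91% higher and 8.22% lower. At day 3, 5 rose and 10 fell, against 8.42% of all genes called, 4.41% higher and 4.01% lower. At day 7, 3 rose and 10 fell, against 8.16% called, 5.28% higher and 2.88% lower. The share of the 90 genes called at day 1, 16.7%, was thus near the background, and at days 3 and 7 it was 16.7% and 14.4%. The falls made up 11.1% of the genes at both later days. On the values as deposited, without the rebuilt offset, the split was 8 up and 10 down at day 3 and 7 up and 12 down at day 7. Of all genes, 3002 and 2290 were called on those values.

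In the cord, rises and falls were balanced at day 1 and falls outnumbered rises from day 3 on. At day 1, 14 rose and 12 fell, against 31.9% of all genes called, 15.8% higher and 16.1% lower, so the 28.9% called among the 90 was near the background. At day 3, 3 rose and 21 fell, against 24.0% called, 11.8% higher and 12.2% lower. At day 7, 6 rose and 40 fell, against 34.7% called, 16.3% higher and 18.4% lower, so that 44.4% of the channel genes fell. The median change over the 90 genes at cord day 7 was -0.48 on the log2 scale, against -0.10 over all genes. These cord counts changed with quantile normalization. With 75th percentile scaling they stayed at 3 up and 21 down at day 3 and 6 up and 40 down at day 7. Over all genes 5020 and 7212 were then called. The arrays of cord day 7 had the widest spread over genes, an SD of 0.788 to 0.908 against 0.297 to 0.428 on the cerebral arrays. The values are centred per gene, so that spread holds the changes themselves as well as any difference in scale. Quantile normalization removes both together and cannot tell them apart. After it, 3 rose and 9 fell at day 3 and 5 rose and 22 fell at day 7. Without the 1st array of cord day 3, 4 rose and 18 fell at day 3, with 4205 of all genes called.

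**Figure D1:**
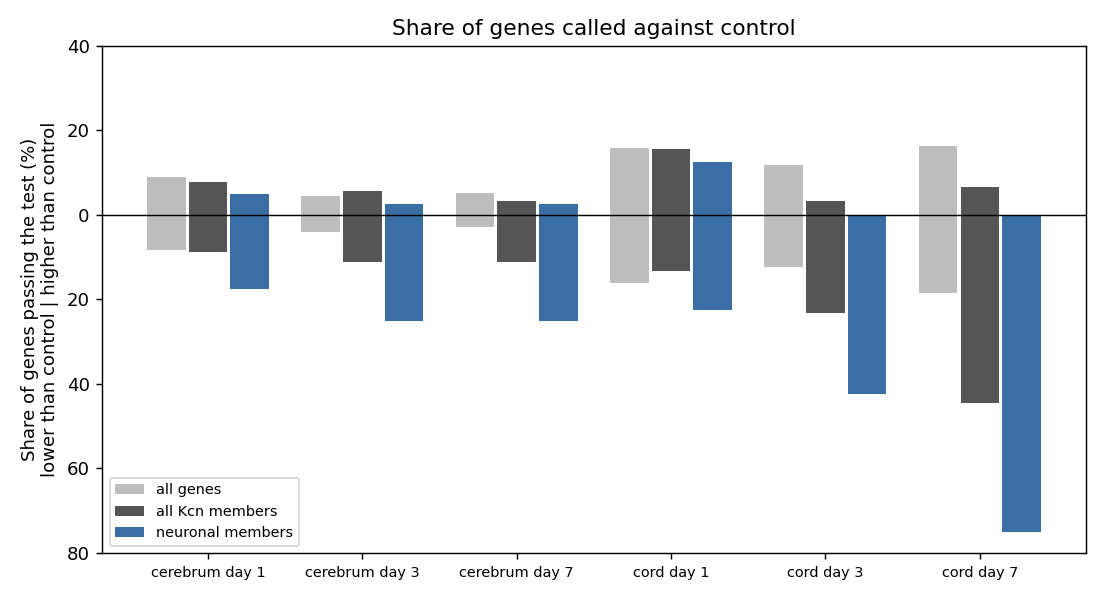
Share of genes (percent) higher (above the line) and lower (below it) than control in each tissue and day, for all genes, the 90 Kcn genes and the 40 neuronal Kcn genes. The bar of neuronal genes that fell reaches 75% at cord day 7, against 18.4% of all genes.

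Among the immune members, Kcnn4 and Kcnk6 rose and Kcna3 and Kcnk13 passed no test against control. Kcnn4 encodes the intermediate-conductance calcium-activated channel of activated microglia, T cells and other blood cells. On the cerebral arrays its centred log2 values were -0.53, -0.43, -0.33 and -0.39 in controls and 0.87, 0.91, 0.68 and 0.60 at day 7. On the cord arrays they were -0.02, 0.74, -0.19 and 0.69 in controls, 1.09, 1.85, 2.19 and 2.53 at day 3, then 3.68, 3.90, 3.74 and 2.89 at day 7. All arrays of cerebral day 7 and of cord days 3 and 7 were thus above their controls, and those of cord day 7 were above every other array. The rise was 2.27-fold at cerebral day 7 (log2 change 1.18 ± 0.24 SE, adjusted p = 0.00219), 3.05-fold at cord day 3 (1.61 ± 0.24, adjusted p = 0.000231) and 9.48-fold at cord day 7 (3.25 ± 0.24, adjusted p = 1.71e-12). At cerebral day 3 the change was 0.75 ± 0.24 with no overlap with the controls, but it was tested against a bound of 0.45 there and did not pass (adjusted p = 0.423). At day 1 the changes were 0.35 in the cerebrum and 0.23 in the cord, neither passed. On the values as deposited the cerebral day 7 change was 0.50 (adjusted p = 0.185) and the cord day 7 change 2.56, and after quantile normalization the cord day 3 and day 7 changes were 1.05 and 1.52.

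Kcnk6, the leak channel TWIK-2 of macrophages and vessels, was the only gene of the 90 that rose at all 3 days in the cord, where 4.90% of all genes did. Its values were -0.10, -0.27, -0.55 and -0.18 on the cord control arrays, 0.37, 0.25, 0.10 and 0.23 at day 1, 0.06, 0.15, 0.39 and 0.94 at day 3, then 1.02, 0.63, 0.48 and 0.61 at day 7. Every cord lesion array was above every cord control array. The changes were 0.51 ± 0.16 (adjusted p = 0.0119), 0.66 ± 0.16 (adjusted p = 0.0058) and 0.96 ± 0.16 (adjusted p = 3.93e-05), the last a 1.95-fold rise. Without the 3rd cord control array the day 1 change was 0.42 (adjusted p = 0.056). In the cerebrum the controls read -0.39, -0.34, -0.15 and -0.66 and the day 1 arrays 0.14, 0.50, 0.29 and 0.42, a rise of 0.72 ± 0.16 (adjusted p = 0.00154). The later cerebral changes of 0.49 and 0.50 did not pass.

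Kcna3, the Kv channel best known from T cells, changed by -0.13 to 0.36 over the 6 comparisons with control. Kcnk13, the leak channel of resting microglia, changed by -0.30 to 0.22. Neither range included a call. Marker genes of microglia were higher at day 7, as Kcnn4 was: 5 of 9 at cerebral day 7 and 5 of 9 at cord day 7, with median changes of 1.46 and 1.76. The mean of the microglial list ran from 1.83 to 2.07 on the cord day 7 arrays and from -0.28 to 0.06 on the cord controls. At cord day 3, where Kcnn4 was also called, it was -0.46 on the 1st array and 1.15 to 1.43 on the others. It was 0.77 to 0.96 at cerebral day 1 and 0.68 to 0.94 at day 3, against -0.28 to -0.21 on cerebral controls. At cord day 1 it was lower than on controls, at -0.67 to -0.36. Kcnn4 was not called at cerebral days 1 and 3 or at cord day 1. At cerebral day 3 its arrays lay above the controls, but its change was tested against a bound there. Of the monocyte and macrophage markers, 6 of 9 were higher at cord day 7 (median 2.32) and 4 of 9 at cerebral day 7 (median 1.13). The part of these cells in the rise of Kcnn4 was not tested. Of 7 lymphocyte markers, 0 were called at days 3 and 7 in either tissue, with medians between -0.11 and 0.03. In tissue homogenate, a change in the number of cells of a type and a change in RNA per cell cannot be told apart, here and for every group below.

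Kcne1l and Kcnj15, outside the immune list, also rose late. Kcne1l, now called Kcne5, is an auxiliary subunit of Kv channels. Its values were 0.00, -0.44, -0.63 and -0.40 on the cerebral controls and 0.72, 1.14, 1.17 and 0.96 at cerebral day 7, then 0.52, 0.30, 0.28 and 0.03 on the cord controls and 2.76, 2.26, 2.35 and 2.20 at cord day 7. Both day 7 groups lay wholly above their controls, while days 1 and 3 overlapped the controls in both tissues. The day 7 rises were 2.57-fold in the cerebrum (1.36 ± 0.20, adjusted p = 4.08e-05) and 4.32-fold in the cord (2.11 ± 0.20, adjusted p = 7.98e-10). In the cord the rise was 0.90 after quantile normalization and 1.49 on the values as deposited, where the cerebral rise was 0.74. It and Kcnn4 were the 2 genes of the 90 called higher at day 7 in both tissues, against 4.39% of all genes.

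Kcnj15, the inward rectifier Kir4.2 of epithelia, read 0.01, 0.11, -0.06 and 0.21 on the cord controls, 0.88, 1.06, 1.45 and 0.29 at cord day 3 and 0.35, 1.53, 1.14 and 2.05 at cord day 7. All lesion arrays were above the controls, but they spread widely, the day 7 SD being 0.72 against 0.12 in controls. The rises were 0.86 ± 0.23 (adjusted p = 0.0114) and 1.20 ± 0.23 (adjusted p = 0.000238). Without the 3rd array of cord day 3 that day's rise was 0.68 (adjusted p = 0.065), and after quantile normalization the day 7 rise was 0.62 (adjusted p = 0.048). In the cerebrum its largest change was 0.50 at day 7, which was not called.

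**Figure D2:**
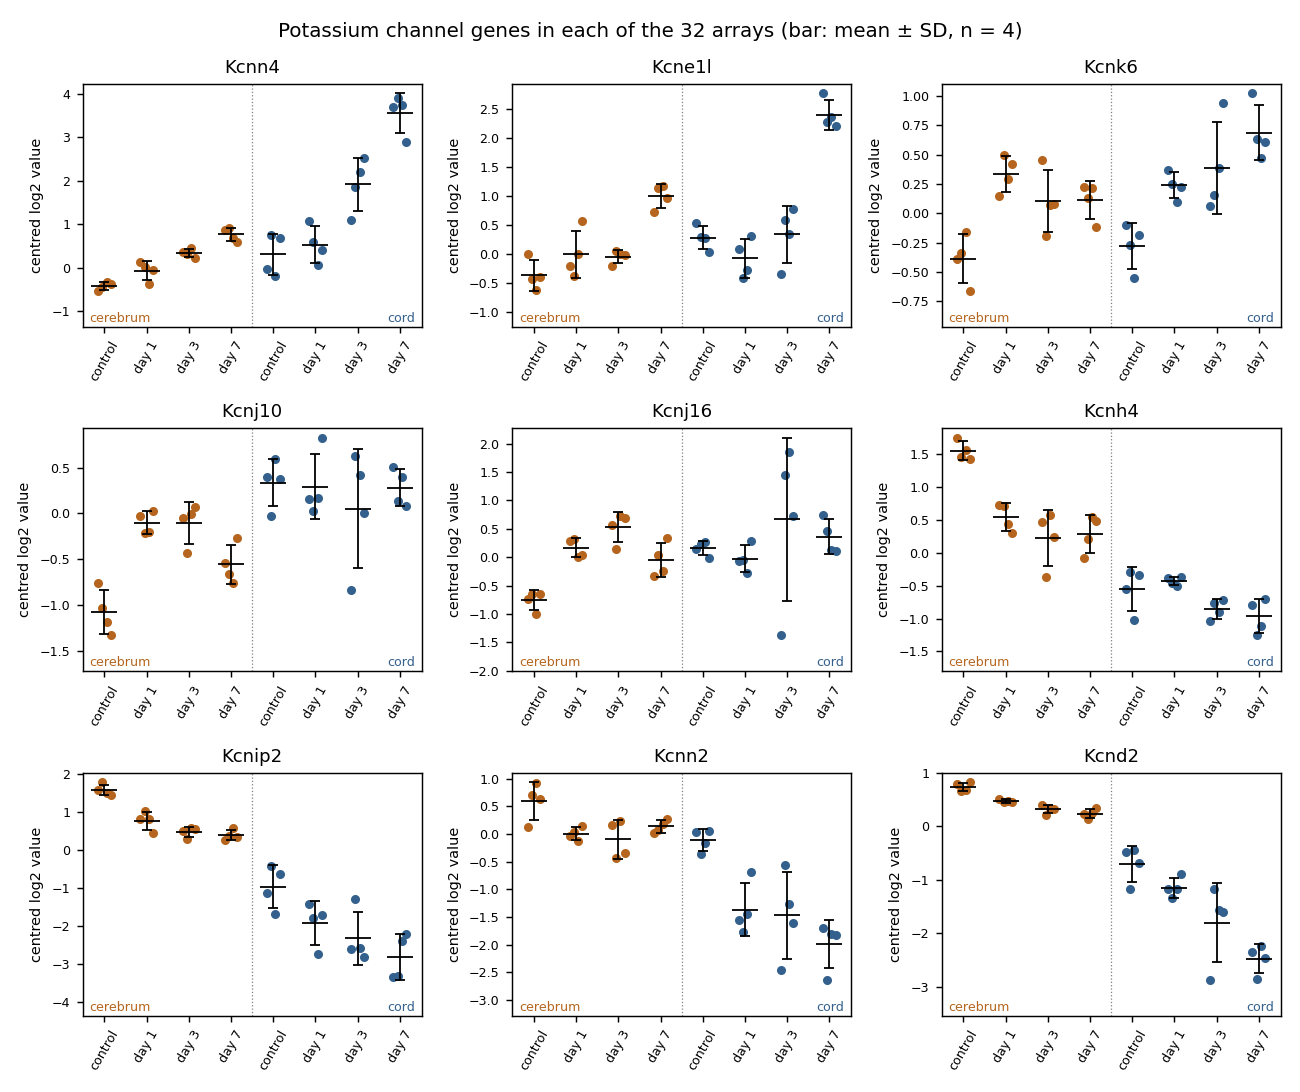
Centred log2 value of 9 genes on each of the 32 arrays (points), with the mean and SD of the 4 arrays of a group (bars), cerebrum left and cord right of the dotted line. Kcnn4 rises to 2.89 or more on the 4 arrays of cord day 7, Kcnj10 and Kcnj16 start low on the cerebral controls, and Kcnip2, Kcnn2 and Kcnd2 fall in the cord.

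Of the 3 glial members, Kcnj10 and Kcnj16 rose in the cerebrum and Kcnk1 fell in the cord. Kcnj10 encodes Kir4.1, the principal potassium channel of astrocytes. It read -0.76, -1.03, -1.19 and -1.33 on the cerebral controls, -0.02, -0.21, -0.21 and 0.03 at day 1, -0.05, -0.43, -0.01 and 0.07 at day 3, then -0.54, -0.66, -0.75 and -0.27 at day 7. No cerebral lesion array of days 1 and 3 overlapped a control, and the day 7 arrays lay above them by a smaller margin. The changes were 0.98 ± 0.21 (1.97-fold, adjusted p = 0.00148), 0.97 ± 0.21 (1.96-fold, adjusted p = 0.0046) and 0.52 ± 0.21 (adjusted p = 0.247). In the cord its controls were 0.39, -0.02, 0.60 and 0.37 and its day 7 arrays 0.51, 0.14, 0.40 and 0.08, and the changes of -0.04, -0.28 and -0.05 at days 1, 3 and 7 all failed the test.

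Kcnj16, or Kir5.1, which pairs with Kir4.1 in astrocytes, read -0.74, -0.64, -1.01 and -0.64 on the cerebral controls and 0.57, 0.14, 0.72 and 0.70 at cerebral day 3. That was a rise of 1.29 ± 0.35 (2.45-fold, adjusted p = 0.0217), and the adjusted p was 0.066 without the 3rd control array, 0.058 without the 3rd day 3 array and 0.060 without the 4th. Its changes of 0.92 at day 1 and 0.70 at day 7 were not called, although neither group overlapped the controls. At cord day 3 it read -1.37, 1.45, 1.85 and 0.73, and the low value belongs to the array with the low weight. Kcnk1, the leak channel TWIK-1 of astrocytes and neurons, read -0.03, -0.12, -0.13 and -0.25 on the cord controls, -0.44, -0.67, -0.73 and -0.93 at day 3, then -0.93, -1.41, -0.87 and -0.86 at day 7. Its falls were -0.56 ± 0.12 (adjusted p = 0.00382) and -0.88 ± 0.12 (adjusted p = 4.4e-06), and its cerebral changes, -0.09 to -0.29, were not called. The cord change minus the cerebral change was -0.59 ± 0.17 at day 7 (adjusted p = 0.00919). After quantile normalization the fall at cord day 3 was -0.41 (adjusted p = 0.052) and the day 7 difference -0.14 (adjusted p = 0.62).

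Marker genes of astrocytes, oligodendrocytes and thalamus were also called higher in part at cerebral day 1. Day 1 was tested against 0 and days 3 and 7 against a bound, so counts of calls cannot be compared between day 1 and later days. Astrocyte markers were higher in 7 of 9 cases at cerebral day 1 (median 0.69), 2 of 9 at day 3 (0.49) and 3 of 9 at day 7 (0.53). Their mean ran from -0.80 to -0.72 on the cerebral controls and from 0.05 to 0.37 on the cerebral lesion arrays. At cord day 7 the astrocyte mean was 0.41 to 0.56, against -0.32 to 0.19 on the cord controls, while Kcnj10 was not called there. Oligodendrocyte markers, of a cell type that also makes Kir4.1, were higher in 5 of 9 cases at cerebral day 1 (median 0.58), with 0 called at days 3 and 7 (0.71 and 0.72). Their cord change minus the cerebral change was lower in 9, 8 and 8 of 9 cases at days 1, 3 and 7, and all 9 were higher in cord than in cerebral controls (median 2.56), as Kcnj10 was. The part of those cells was not tested. Thalamic markers were higher in 6, 5 and 5 of 10 cases at days 1, 3 and 7 (medians 0.84, 0.96 and 0.79), with the spread among controls given above. With only the first 2 cerebral control arrays, those whose thalamic markers lie nearest the lesion arrays, the Kcnj10 changes were 0.80 (adjusted p = 0.052) at day 1 and 0.79 (adjusted p = 0.11) at day 3. That fit has fewer arrays, and over all genes its calls dropped from 3341 to 1719 at day 1 and from 1642 to 893 at day 3. A lost call there is therefore no test of the sampled region, whose part in these changes was not tested.

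Of the 40 neuronal members, 7, 10 and 10 fell in the cerebrum at days 1, 3 and 7 and 2, 1 and 1 rose. The falls were 17.5%, 25% and 25% of the 40, against 8.22%, 4.01% and 2.88% of all genes. Their median change was -0.22, -0.28 and -0.46, against -0.01, -0.03 and -0.05 over all genes. Forebrain marker genes moved the same way: 3, 2 and 3 of 8 were lower at days 1, 3 and 7, and their mean was 1.53 to 1.71 on the cerebral controls and 0.93 to 1.29 on the 12 cerebral lesion arrays, with no overlap. The part of the sampled region in the falls of the genes below was not tested. The fits with subsets of controls have fewer arrays and cannot decide it. Kcnh4, Kcnv1, Kcnt2 and Kcnk4 fell at all 3 days, and so did the Kv genes Kcnh3 and Kcnf1, which are named after their values were seen. Kcnh4, a Kv channel of the Elk family found mainly in the forebrain, read 1.74, 1.46, 1.56 and 1.42 on the cerebral controls, 0.72, 0.71, 0.44 and 0.30 at day 1, 0.47, -0.37, 0.57 and 0.24 at day 3, then -0.08, 0.20, 0.54 and 0.48 at day 7. All 12 lesion arrays were below all 4 controls. The falls were -1.0 ± 0.17 (adjusted p = 0.000127), -1.32 ± 0.17 (2.5-fold, adjusted p = 9.45e-06) and -1.26 ± 0.17 (adjusted p = 1.45e-05), and all 3 were called under each alternative setting tried.

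Kcnv1, a silent Kv subunit of the cortex, read 1.42, 1.80, 2.56 and 2.71 on the cerebral controls, 1.10, 1.35, 1.29 and 0.66 at day 1, 1.24, -0.20, 1.65 and 1.13 at day 3, then 1.02, 1.13, 1.03 and 1.34 at day 7. The control arrays spread over more than 1 log2 unit and the day 3 arrays reached into them. Its falls of -1.02 ± 0.26 (adjusted p = 0.00615), -1.17 ± 0.26 (adjusted p = 0.00487) and -1.0 ± 0.26 (adjusted p = 0.0222) shrank to -0.51, -0.65 and -0.48 with only the first 2 control arrays, and none was then called. At day 7 it also lost the call without the 3rd control array (-0.85, adjusted p = 0.1) and without the 4th (-0.80, adjusted p = 0.11).

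Kcnt2 (Slick, a sodium-activated channel) and Kcnk4 (TRAAK, a leak channel that responds to stretch and lipids) were the only genes of the 90 lower in all 6 comparisons with control. Of all genes, 1.12% were lower at all 3 days in the cerebrum and 5.38% in the cord. The share lower in all 6 was not counted. Kcnt2 read 1.02, 0.98, 1.71 and 1.37 on the cerebral controls and 0.54, 0.45, 0.39 and 0.02 at day 1. In the cord it read -0.02, -0.12, -0.35 and -0.25 on controls and -1.42, -1.44, -1.79 and -1.26 at day 1. No day 1 array overlapped its controls in either tissue. Its changes at days 1, 3 and 7 were -0.92, -1.26 and -0.96 in the cerebrum (each ± 0.20, adjusted p 0.000145 to 0.0046) and -1.29, -1.01 and -1.07 in the cord (each ± 0.20, adjusted p 1.25e-05 to 0.000682). With only the first 2 cerebral controls the falls at days 1 and 7 were -0.65 (adjusted p = 0.083) and -0.69 (adjusted p = 0.17).

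Kcnk4 read 0.56, 0.44, 1.52 and 0.85 on the cerebral controls and -0.15, -0.11, -0.03 and -0.37 at cerebral day 7, then 0.14, -0.22, -0.14 and -0.01 on the cord controls and -1.16, -1.22, -1.02 and -1.20 at cord day 7. It did not overlap the controls in any of the 6 comparisons. Its changes were -0.84, -0.71 and -1.01 in the cerebrum and -0.42, -0.58 and -1.09 in the cord at days 1, 3 and 7 (each ± 0.15, adjusted p 1.51e-06 to 0.0261). With only the first 2 cerebral controls the cerebral falls at days 1 and 7 were -0.50 and -0.67, both still called. The test of the difference between the tissues was not passed at any day for either gene.

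Kcnip2 and Kcnj3 fell in both tissues as well. Kcnip2 encodes KChIP2, which brings Kv4 channels to the membrane, and read 1.58, 1.76, 1.49 and 1.44 on the cerebral controls, 0.79, 1.02, 0.80 and 0.44 at day 1, 0.49, 0.27, 0.56 and 0.54 at day 3, then 0.26, 0.36, 0.57 and 0.33 at day 7. All cerebral lesion arrays were below the controls. The cerebral changes were -0.80 ± 0.29 at day 1 (adjusted p = 0.0502, not called), -1.10 ± 0.29 at day 3 (adjusted p = 0.0175) and -1.19 ± 0.29 at day 7 (adjusted p = 0.0111). The day 3 call was lost without the 2nd control array (-1.04, adjusted p = 0.051), without the 2nd day 3 array (-1.04, adjusted p = 0.054), and with only the first 2 or the last 2 controls (adjusted p = 0.063 and 0.13). The day 7 call was lost with only the last 2 controls (-1.08, adjusted p = 0.099), and both were lost with the allowance doubled (adjusted p = 0.065 and 0.053).

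In the cord Kcnip2 read -1.14, -0.44, -1.70 and -0.63 on controls, -1.42, -1.80, -2.76 and -1.71 at day 1, -2.62, -1.31, -2.60 and -2.82 at day 3, then -3.35, -3.31, -2.41 and -2.22 at day 7. Days 1 and 3 overlapped the wide range of the controls and day 7 did not. The changes were -0.94 ± 0.29 (adjusted p = 0.0121), -1.35 ± 0.29 (adjusted p = 0.000919) and -1.84 ± 0.29 (3.59-fold, adjusted p = 7.07e-06). The day 3 change was -0.85 after quantile normalization. At day 1 the call was lost without the 2nd cord control (-0.76, adjusted p = 0.055) or the 3rd day 1 array (-0.66, adjusted p = 0.082).

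Kcnj3, the Kir3.1 subunit that G proteins open, read 1.23, 0.96, 1.42 and 1.13 on the cerebral controls and 0.25, -0.15, 0.62 and 0.22 at cerebral day 3, a fall of -0.95 ± 0.23 (adjusted p = 0.0115). Without the 2nd day 3 array that fall was -0.82 (adjusted p = 0.057), and with only the first 2 controls -0.86 (adjusted p = 0.12). In the cord it read -0.24, -0.95, -0.58 and -0.61 on controls, -2.36, -1.0, -1.30 and -1.83 at day 3, then -1.90, -2.79, -1.76 and -1.80 at day 7. Both cord groups lay below the controls, with falls of -1.03 ± 0.23 (adjusted p = 0.00189) and -1.47 ± 0.23 (adjusted p = 9.65e-06). The day 3 fall was -0.58 (adjusted p = 0.067) after quantile normalization.

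A few genes rose in the cerebrum. Kcnip1, or KChIP1, a partner of Kv4 channels in interneurons among others, read -0.69, -0.48, -1.16 and -1.01 on the cerebral controls, 0.13, -0.08, 0.23 and 0.02 at day 1, -0.09, -0.19, 0.04 and -0.05 at day 3, then -0.15, 0.01, -0.20 and 0.06 at day 7. All 12 lesion arrays were above the controls, and it was the only gene of the 90 that rose at all 3 days in the cerebrum, where 2.15% of all genes did. The rises were 0.91, 0.76 and 0.77 (each ± 0.20, adjusted p = 0.00142, 0.0216 and 0.0259). Without the 3rd cerebral control the later rises were 0.65 (adjusted p = 0.093) and 0.66 (adjusted p = 0.11), and without the 4th 0.70 (adjusted p = 0.068) and 0.71 (adjusted p = 0.077). They were also not called without the 3rd day 3 array or without the 2nd or 4th day 7 array (adjusted p = 0.058 to 0.071), and with only the first 2 controls none of the 3 rises was called (0.66, 0.51 and 0.52). In the cord it read -0.02, -0.32, 0.59 and -0.15 on controls and -0.84, -1.82, -0.68 and -0.75 at day 7, a fall of -1.05 ± 0.20 (adjusted p = 0.000186).

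Kcnj5, the Kir3.4 partner of Kir3.1, rose early in both tissues and was not called at day 7. It read -0.03, -0.29, -0.30 and -0.44 on the cerebral controls, 0.03, 0.17, 0.20 and 0.48 at day 1 and 0.68, 0.13, 0.22 and 0.29 at day 3, with rises of 0.49 ± 0.13 (adjusted p = 0.00827) and 0.60 ± 0.13 (adjusted p = 0.00928). With only the first 2 controls they were 0.38 (adjusted p = 0.13) and 0.49 (adjusted p = 0.15), and the day 3 rise was 0.48 (adjusted p = 0.059) without the 1st day 3 array. On the cord controls it read -0.27, -0.52, -0.58 and -0.41 and at cord day 1 0.08, 0.18, 0.24 and 0.31, a rise of 0.64 ± 0.13 (adjusted p = 0.000282). The changes at day 7 were 0.01 and 0.06, and the 2nd array of cerebral day 7, at 0.03, was above every control. Kcnh2, the ERG channel known from the heart, rose by 0.87 ± 0.13 at cerebral day 1 (adjusted p = 3.34e-05), or by 0.41 (adjusted p = 0.024) after quantile normalization. Its later cerebral changes of 0.77 and 1.02 were tested against bounds of 0.70 and 0.93 and were not called. Kcnn3, a small-conductance calcium-activated channel, rose by 0.54 ± 0.15 at cerebral day 3 (adjusted p = 0.0478), a call that 7 of the 8 fits without 1 of those arrays lost (adjusted p up to 0.16).

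In the cord the neuronal members fell in 9 cases at day 1, 17 at day 3 and 30 at day 7, with median changes of -0.07, -0.37 and -1.06. These were 22.5%, 42.5% and 75% of the 40, against 16.1%, 12.2% and 18.4% of all genes, and the 35% called in either direction at day 1 was near the background of 31.9%. At day 7 not 1 of the 40 rose and 10 did not pass the test. Neuronal marker genes fell with them: 13 of 14 were lower at cord day 7, also with a median of -1.06, and their mean ran from -1.79 to -1.17 on those arrays against -0.17 to -0.05 on the cord controls. At cerebral day 7, 1 of the 14 neuronal markers was lower and 1 higher, with a median of -0.17. Whether the channel genes fell by more or less than neuronal markers did was not tested.

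The largest falls at cord day 7 were those of Kcnn2, Kcnip2, Kcnab1, Kcnd2 and Kcnc4. Kcnn2, a small-conductance calcium-activated channel that shapes the pause after a spike, read 0.03, -0.37, -0.17 and 0.05 on the cord controls, -1.56, -1.77, -1.45 and -0.68 at day 1, -2.45, -0.55, -1.26 and -1.61 at day 3, then -1.70, -2.63, -1.80 and -1.82 at day 7. All 12 lesion arrays were below the controls. The falls were -1.25 ± 0.26 (adjusted p = 0.000482), -1.36 ± 0.26 (adjusted p = 0.000362) and -1.88 ± 0.26 (3.67-fold, adjusted p = 1.25e-06). After quantile normalization, the day 7 falls were -1.05 for Kcnn2, -0.84 for Kcnip2, -1.05 for Kcnab1, -0.83 for Kcnd2 and -1.10 for Kcnc4, each still called (adjusted p = 1.46e-06 to 0.0238). In the cerebrum the Kcnn2 changes, -0.46 to -0.69, were not called, and each cerebral lesion group overlapped the controls.

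Kcnd2, the Kv4.2 pore of the somatodendritic A-type current, read -0.47, -1.18, -0.45 and -0.68 on the cord controls, -2.87, -1.18, -1.57 and -1.59 at day 3, then -2.35, -2.85, -2.24 and -2.46 at day 7. The 2nd day 3 array lay just below the lowest control and the day 7 arrays far below. The falls were -1.11 ± 0.20 (adjusted p = 0.00028) and -1.78 ± 0.20 (3.43-fold, adjusted p = 4.59e-08), the former -0.64 after quantile normalization. On the cerebral arrays it read 0.79, 0.66, 0.68 and 0.82 in controls and 0.23, 0.15, 0.25 and 0.35 at day 7, and the change of -0.50 ± 0.20 was not called (adjusted p = 0.275) although the groups did not overlap.

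Kcna6, a Kv1 channel of axons, read 0.43, 0.75, 0.52 and 0.85 on the cord controls, -0.06, -0.36, -0.55 and -0.27 at day 1, -1.30, 0.37, -0.14 and -0.56 at day 3, then -0.76, -0.63, -0.64 and -0.78 at day 7. All lesion arrays were below the controls, and its falls were -0.95, -1.05 and -1.34 (each ± 0.19, adjusted p 2.49e-06 to 0.000273). The cerebral changes were -0.10, -0.20 and 0.15. Kcnab1, a beta subunit of Kv1 channels, fell by 1.82 ± 0.15 at cord day 7 (adjusted p = 6.1e-11), and Kcnc4, a Kv3 channel of fast-spiking neurons, by 1.75 ± 0.17 (adjusted p = 1.11e-09). Kcnq3, a subunit of the M-current, fell by 0.69 ± 0.13 at cord day 1 (adjusted p = 9.71e-05).

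At cord day 1, 5 of the 40 neuronal members (12.5%) rose, against 15.8% of all genes, so their share was not above the background. Kcnab2, another beta subunit, rose by 0.70 ± 0.16 at cord day 1 (adjusted p = 0.000979), and Kcnk9, the acid-sensitive leak channel TASK-3, by 0.58 ± 0.14 (adjusted p = 0.00218). Among the 90 genes 4 were called higher in at least 1 comparison with control and lower in another, and they are named after their values were seen: Kcna1, Kcnab2, Kcnc1 and Kcnip1. How many of all genes did so was not counted, so this is not read as a trait of the channel genes. Kcna1, a Kv1 channel of axons, changed by 0.49 at cord day 1 and -1.25 at cord day 7, and Kcnc1, a Kv3 channel, by 0.44 and -1.04. Kcnab2 ended at -0.78 at cord day 7.

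**Figure D3:**
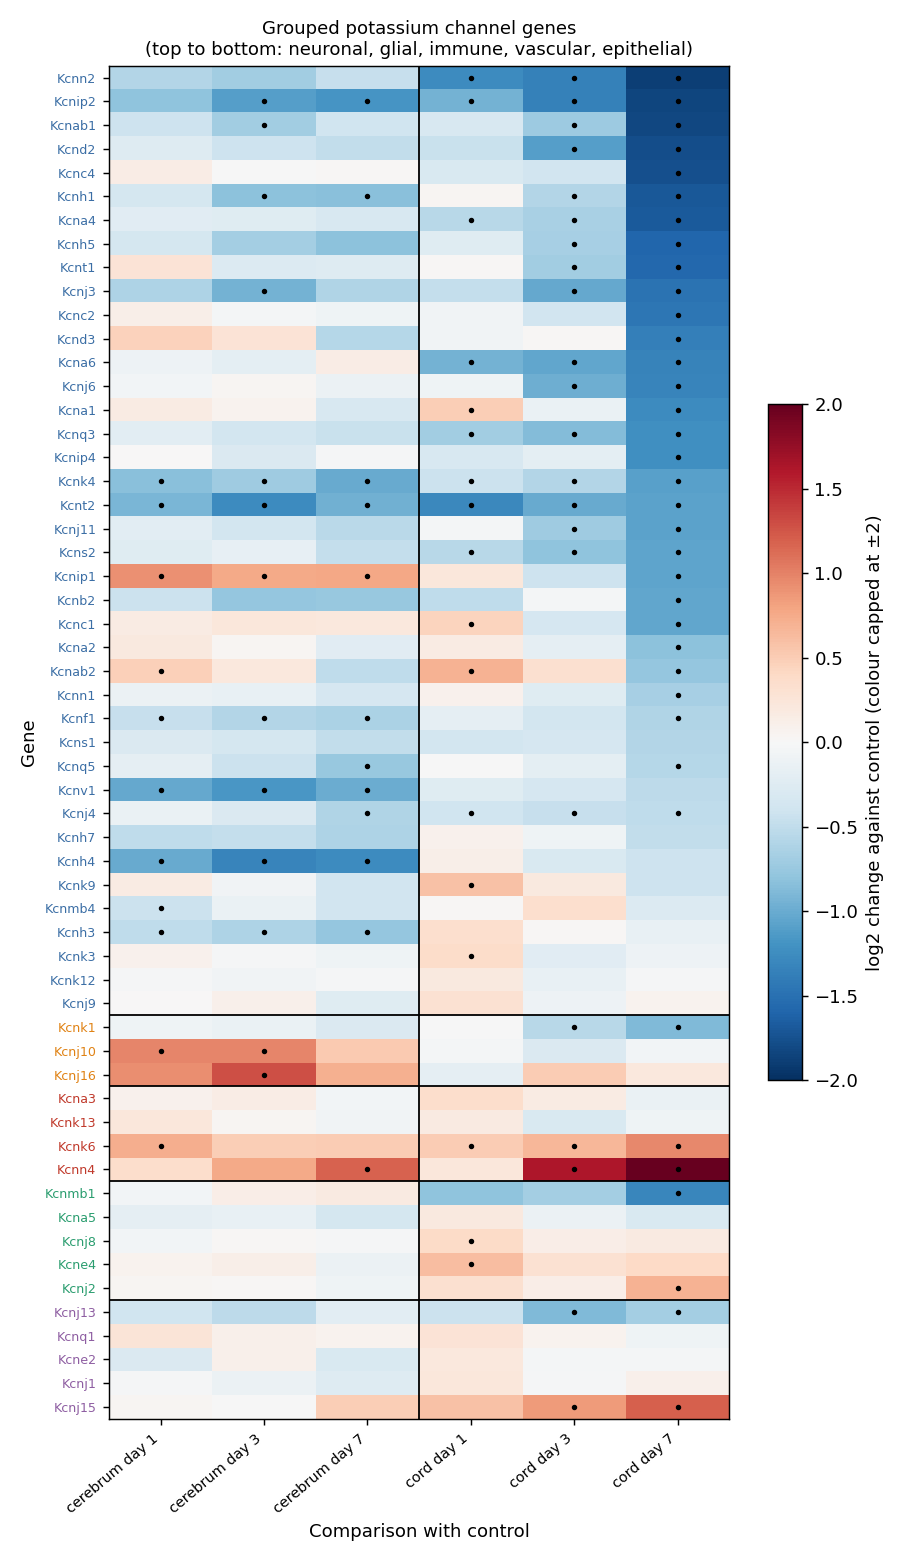
log2 change against control (colour, capped at 2 in either direction) of the 57 grouped Kcn genes in the 6 comparisons, with a dot where the test was passed, and with groups from top to bottom as neuronal, glial, immune, vascular and epithelial. Dots fill most of the neuronal block at cord day 7, where 30 of 40 genes fell.

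Vascular members changed little in the cerebrum, where 0 of 5 were called at any day, with changes between -0.35 and 0.18. In the cord Kcne4 and Kcnj8 rose at day 1, Kcnj2 rose at day 7 and Kcnmb1 fell at day 7. Kcne4, an auxiliary subunit found in smooth muscle, read -0.27, -0.23, -0.42 and -0.27 on the cord controls and 0.15, 0.46, 0.71 and -0.02 at day 1, a rise of 0.62 ± 0.13 with no overlap (adjusted p = 0.000498). Kcnj8, or Kir6.1, the ATP-sensitive channel of pericytes and smooth muscle, read -0.16, -0.13, 0.05 and -0.28 and then 0.01, 0.21, 0.42 and 0.36, a rise of 0.38 ± 0.14 with overlap (adjusted p = 0.0456). That call was lost without the 1st, 2nd or 4th control or without the 2nd, 3rd or 4th day 1 array (adjusted p up to 0.13).

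Kcnj2, or Kir2.1, of endothelium, muscle and macrophages, read -0.02, -0.46, -0.54 and -0.24 on the cord controls and -0.03, 0.44, 0.46 and 0.62 at day 7. The lowest day 7 array fell just within the controls, and the rise was 0.69 ± 0.13 (1.61-fold, adjusted p = 0.00053). Kcnmb1, the beta subunit of the large-conductance calcium-activated channel in smooth muscle, read -0.04, 2.45, 0.20 and 2.29 on the cord controls and -0.15, -0.05, -0.08 and -0.03 at day 7. The 2nd and 4th controls stood high and the groups overlapped. The fall was -1.30 ± 0.34 (adjusted p = 0.0039), and it was -0.89 (adjusted p = 0.038) without the 2nd control and -0.95 (adjusted p = 0.037) without the 4th. Smooth muscle and pericyte markers went the opposite way, with 7 of 10 higher at cord day 7 (median 1.73), and their means on the 4 cord controls were -0.35, 0.73, -0.35 and 0.14. In the RefSeq annotation Kcnmb1 lies inside the span of Kcnip1, whose values on those 4 controls did not follow it. Kcna5, a Kv1 channel of arteries, changed by -0.35 to 0.20 and was not called.

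Among epithelial members, Kcnj15 has been described and Kcnj13 fell in the cord. Kcnj13, or Kir7.1, a channel of choroid plexus and retinal epithelium, changed by -0.89 ± 0.18 at cord day 3 (adjusted p = 0.00253) and -0.68 ± 0.18 at cord day 7 (adjusted p = 0.00967). Without the 1st array of cord day 7 that fall was -0.48 (adjusted p = 0.084), and after quantile normalization the falls were -0.63 (adjusted p = 0.073) and -0.28 (adjusted p = 0.53). Of the 8 choroid plexus markers 1 was lower at each of these days, with medians of -0.08 and -0.17. Kcnq1, Kcne2 and Kcnj1, subunits of channels in secretory or renal epithelia, changed by -0.31 to 0.27 and were not called against control.

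Kcnq1ot1, the antisense RNA, fell by 0.61 ± 0.16 at cerebral day 1 (adjusted p = 0.00697). As the strand read by the probes is not given in the sources used here, reads of Kcnq1 and of this RNA may not be separable, and Kcnq1 changed by 0.25 in that comparison without a call.

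The control arrays already differed between the tissues. In cord controls 16 of the 90 genes were higher and 35 lower than in cerebral controls, against 34.8% of all genes called, 17.2% higher and 17.6% lower. Of the 40 neuronal members 26 were lower and 5 higher, with a median of -0.91 against -0.02 over all genes. The largest differences toward the cerebrum were Kcnv1 (-3.13 ± 0.26), Kcnf1 (-2.98 ± 0.16), Kcnj4 (-2.94 ± 0.14), Kcnip2 (-2.55 ± 0.29), Kcnq5 (-2.46 ± 0.16) and Kcnh3 (-2.45 ± 0.15). Their adjusted p-values ran from 6.43e-17 to 1.22e-08. Kcnj4 is an inward rectifier of forebrain neurons and Kcnq5 a subunit of the M-current.

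Toward the cord the largest were Kcnh2 (2.13 ± 0.13), Kcnd1 (2.11 ± 0.44), Kcng4 (1.72 ± 0.16), Kcnj10 (1.41 ± 0.21), Kcnmb1 (1.33 ± 0.34) and Kcna1 (1.13 ± 0.14). Kcng4 is a silent Kv subunit, and Kcnd1 a pore of the Kv4 family. The 4 cord controls and 4 cerebral controls overlapped for Kcnmb1 and did not for the other five. Of the glial, immune, vascular and epithelial members, Kcnj16 (0.92), Kcnn4 (0.72) and Kcnk13 (0.30) were also called higher in the cord, and Kcne2 (-1.27), Kcnj13 (-0.76), Kcna3 (-0.67), Kcnj2 (-0.38) and Kcnk1 (-0.33) lower. The Kcnn4 difference was 0.58 without the 2nd cord control and 0.59 without the 4th, and then not called (adjusted p = 0.079 and 0.073). Each of the calls of Kcnj16, Kcnk13, Kcnj2 and Kcnk1 was likewise lost without 1 or more single control arrays.

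Whether a gene's response differed between the tissues was tested as the cord change minus the cerebral change. At day 1, 2 of the 90 differences were positive and 3 negative, against 11.3% of all genes called, 4.70% positive and 6.58% negative. At day 3 there were 1 and 9, against 9.27% called, 4.08% positive and 5.19% negative. At day 7 there were 6 and 27, against 27.6% called, 13.0% positive and 14.6% negative. Of the 27 negative differences at day 7, 19 were neuronal members. After quantile normalization of the centred values the split was 3 and 7 at day 3 and 9 and 9 at day 7. The split at day 7 thus changed with that step, after which 1711 and 3239 of all genes were called at days 3 and 7.

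Kcnip1 was called higher in the cerebrum and lower in the cord at day 7. Its difference was -1.17 ± 0.28 at day 3 (adjusted p = 0.00617) and -1.82 ± 0.28 at day 7 (adjusted p = 8.47e-06), and with only the first 2 cerebral controls the day 3 difference was -0.92 (adjusted p = 0.076). Kcnh2 differed by -1.37 ± 0.19 at day 3 (adjusted p = 3.76e-05) and -1.62 ± 0.19 at day 7 (adjusted p = 1.78e-07), its changes being 0.77 and 1.02 in the cerebrum and -0.60 at both days in the cord, none of the 4 called against control. Kcnj10 differed by -1.02 ± 0.30 at day 1 (adjusted p = 0.0236) and -1.26 ± 0.30 at day 3 (adjusted p = 0.00627). Its day 1 difference was no longer called without the 4th cerebral control, the 3rd cord control or the 2nd cord day 1 array (each -0.93, adjusted p = 0.053 to 0.056). With only the first 2 cerebral controls the Kcnj10 differences were -0.84 (adjusted p = 0.14) and -1.08 (adjusted p = 0.063). Kcna6 differed by -0.85 at days 1 and 3 and by -1.49 ± 0.27 at day 7, and the calls at days 1 and 3 (adjusted p = 0.0365 and 0.0408) were lost without any of several single arrays.

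Kcnh4 went the other way, with differences of 1.12, 1.01 and 0.85 (each ± 0.24, adjusted p = 0.00296, 0.00687 and 0.00846): it fell in the cerebrum, while its cord changes of 0.12, -0.31 and -0.41 were not called. Kcnh3 differed by 0.85 ± 0.21 at day 1 (adjusted p = 0.0096) and 0.62 ± 0.21 at day 7 (adjusted p = 0.0293). With only the first 2 cerebral controls these were 0.67 (adjusted p = 0.089) and 0.44 (adjusted p = 0.20), and with only the last 2 cord controls 0.68 (adjusted p = 0.062) and 0.45 (adjusted p = 0.17). The day 7 call was also lost without the 3rd or 4th cerebral control, the 1st cord control or the 1st array of either day 7 group (adjusted p = 0.051 to 0.074). After quantile normalization the day 7 differences were 1.49 for Kcnh3 and 1.77 for Kcnh4. At day 7 Kcnn4 differed by 2.06 ± 0.34 (adjusted p = 2.21e-05), Kcnj2 by 0.78 ± 0.18 (adjusted p = 0.00151) and Kcne1l by 0.75 ± 0.28 (adjusted p = 0.0472). With quantile normalization the Kcnn4 difference was 0.10 (adjusted p = 0.87) and the Kcne1l difference turned to -0.76 (adjusted p = 0.096). Kcne1l also lost the call in 11 of the 16 fits that left out 1 array of those groups.

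The remaining differences in the rule were negative. Kcnc4 differed by -1.77 ± 0.24 at day 7 (adjusted p = 1.3e-06), or -1.15 after quantile normalization, having changed by 0.02 in the cerebrum. Kcnmb1 differed by -1.48 ± 0.48 at day 7 (adjusted p = 0.0193), which was not called without the 2nd cord control (-1.07) or the 4th (-1.12). Kcnj6, the Kir3.2 subunit, differed by -1.03 ± 0.27 at day 3 (adjusted p = 0.0134), or -0.80 (adjusted p = 0.088) after quantile normalization. Kcnh8, a Kv channel of the Elk family, differed by -0.60 ± 0.16 at day 1 (adjusted p = 0.0138).

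**Figure D4:**
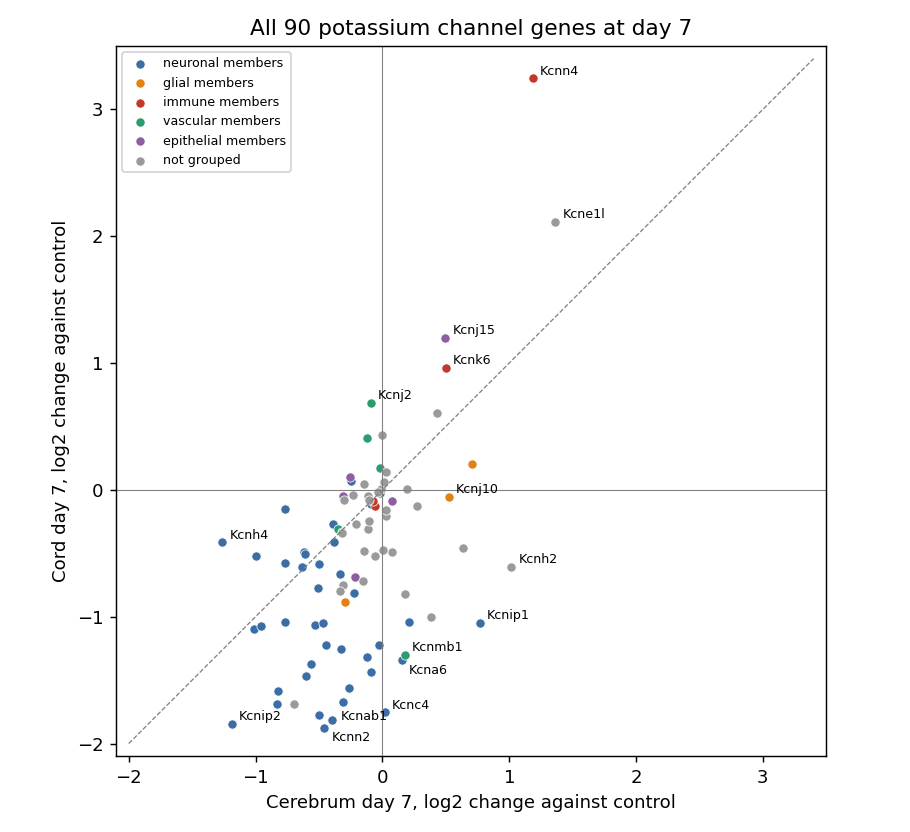
log2 change against control at day 7 in the cerebrum (horizontal) and the cord (vertical) for the 90 Kcn genes, coloured by group, with the line of equal change dashed. Kcnn4 and Kcne1l stand at the top right, at 3.25 and 2.11 in the cord, and most neuronal genes lie below the dashed line.

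Other genes that handle potassium or anchor its channels were read from a list of 31, of which 25 were measured. In the cerebrum 5 of them were higher and 1 lower at day 1, no gene was called at day 3, and 2 were higher and 4 lower at day 7. In the cord 3 were higher and 5 lower at day 1, followed by 1 and 4 at day 3 and by 3 and 10 at day 7. The share called was 24%, 0% and 24% in the cerebrum at days 1, 3 and 7, against 17.1%, 8.42% and 8.16% of all genes, and 32%, 20% and 52% in the cord, against 31.9%, 24.0% and 34.7%, so at cord days 1 and 3 it was at or below the background. At cord day 7 the falls included Cntnap2 (-1.95 ± 0.17), which clusters Kv1 channels beside the node, and Dpp10 (-1.72 ± 0.20) and Dpp6 (-1.50 ± 0.18), the membrane partners of Kv4 channels. They also included the scaffold Dlg4 (-1.41 ± 0.14), the secreted protein Lgi1 (-1.17 ± 0.15) and the neuronal potassium chloride exporter Slc12a5 (-1.17 ± 0.16). Slc12a7, a cotransporter of the same family that is not neuron-specific, rose by 0.73, 1.17 and 1.53 (each ± 0.17) at cord days 1, 3 and 7.

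Aqp4, the water channel of astrocyte endfeet that lies beside Kir4.1, rose by 1.98 ± 0.36 at cerebral day 1 (adjusted p = 0.000245), by 2.01 ± 0.36 at cerebral day 7 (adjusted p = 0.000336) and by 1.70 ± 0.36 at cord day 7 (adjusted p = 0.000432). Its changes of 1.13 at cerebral day 3, tested against a bound of 1.30, and of -0.26 and -0.44 at cord days 1 and 3 were not called. Kcnj10 was called at cerebral days 1 and 3 and at neither day 7. The pacemaker channel genes Hcn2 and Hcn4 rose at cerebral day 1, by 0.92 ± 0.18 (adjusted p = 0.0007) and 0.77 ± 0.16 (adjusted p = 0.00111). These partner genes were picked from their list after the values were seen.

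In all, 63 of the 90 genes (70.0%) passed at least 1 of the 6 comparisons with control, against 59.9% of all genes, and 27 passed none. The 27 comprised 4 neuronal, 2 immune, 1 vascular, 3 epithelial and 17 ungrouped genes, with changes from -1.01 to 0.57. In the cerebrum 14 genes (15.6%) fell at 1 or more days and 6 (6.67%) at all 3, against 10.3% and 1.12% of all genes, and 11 (12.2%) rose at 1 or more, against 11.7%. In the cord 40 (44.4%) fell at 1 or more days and 10 (11.1%) at all 3, against 28.5% and 5.38%, and 18 (20.0%) rose at 1 or more, against 27.1%. At day 7, 7 genes (7.78%) were lower in both tissues, against 1.79%. All members had 1 probe and no filter on level was possible, so none was left out.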

How the data were processed

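RNA was measured on 32 one-colour arrays, 4 in each of 8 groups, from snap-frozen tissue extracted with TRIzol, of which 10 ng was labelled with biotin, per the labels' protocols. The authors deposited 1 table of log-scale values, taken here as log2, centred probe by probe. The log base, summarisation and background correction are not stated in what was used. The values ran from -5.58 to 8.04 and hold no absolute level, so levels of different genes could not be compared and no filter on level was possible. Of 22206 probes, 19572 had 1 gene symbol in the platform annotation and 2634 had none. The probes of 55 genes were averaged, which left 19505 genes.

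In the deposited log2 values the controls and day 1 had been centred together, and days 3 and 7 each apart. The offset of the later days was rebuilt for each probe from the medians that the centring implies, with the 8 controls as partner, and where the centring allows a range of offsets its midpoint was used. Changes at day 3 and day 7 against control were tested against a bound, the half-width of that range plus an allowance of 0.120 at day 3 and 0.145 at day 7 (the 99th percentile of the shortfall). The allowance was defined after the centring had been seen and before calls were compared. A difference between tissues at the same day, and every comparison at day 1, is free of this offset and was tested against 0.

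All 32 arrays were fitted as 8 group means with limma 3.58.1 (lmFit and eBayes) in R 4.3.3, and tables were made with Python 3.11.15. Adjusted p-values are Benjamini-Hochberg values over all 19505 genes, called below 0.05. Precision is limited by the 4 arrays of a group, and no depth applies to arrays. In simulated data a small part of the 19505 genes was changed, in the cord only and with normal noise. There 91%, 91% and 92% of changes of 1 log2 unit were recovered at cord days 1, 3 and 7, and 43%, 21% and 22% of changes of 0.5. Cerebral changes were not simulated, and far more genes were called in the data. These shares need not hold here, least of all for genes with a wide bound.

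Genes named with values were the 5 largest rises and falls past the test in each comparison, the 6 largest each way between controls, and every glial, immune, vascular and epithelial member. Array values were given for those named in 2 or more comparisons with control. The members and all gene lists were chosen with earlier results of these data known. Array numbers within a group follow accession order and pair nothing. The numbers in the titles form separate ranges for the groups, so a batch they might mark cannot be told apart from its group. Alternatives were quantile and 75th percentile scaling of the centred values, the deposited or exact offset, array weights, a variation filter, the highest probe of a gene, subsets of controls and leaving out each array.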

Additional observations from a re-analysis of the deposited data

Results flagged for a closer look

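On 6 occasions, among 176 checks of a group of 4 arrays over 22 genes, 1 array stood apart from the other 3 by Dixon's criterion, which chance meets in about 1 of 20 groups. The 2nd array of cord day 7 was that array for Kcnip1 (-1.82, the others -0.84 to -0.68), Kcnj3 (-2.79, the others -1.90 to -1.76), Kcnk1 (-1.41, the others -0.93 to -0.86) and Kcnn2 (-2.63, the others -1.82 to -1.70). The 2nd array of cord day 3 read -1.31 for Kcnip2, the others -2.82 to -2.60. The 2nd array of cerebral day 7 read 0.0277 for Kcnj5, the others -0.36 to -0.34.

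The cord change minus the cerebral change passed limma's test of the difference, fitted across all genes, for these genes among those named. At day 1 it was -1.02 for Kcnj10 (adjusted p = 0.0236), -0.85 for Kcna6 (adjusted p = 0.0365) and -0.60 for Kcnh8 (adjusted p = 0.0138), and on the positive side 1.12 for Kcnh4 (adjusted p = 0.00296) and 0.85 for Kcnh3 (adjusted p = 0.0096). At day 3 the values were -1.37 for Kcnh2, -1.26 for Kcnj10, -1.17 for Kcnip1, -1.03 for Kcnj6, -0.85 for Kcna6 and 1.01 for Kcnh4, with adjusted p from 3.76e-05 to 0.0408. At day 7 the negative values were -1.82 for Kcnip1, -1.77 for Kcnc4, -1.62 for Kcnh2, -1.49 for Kcna6 and -1.48 for Kcnmb1, with adjusted p from 1.78e-07 to 0.0193. The positive values of day 7 were 2.06 for Kcnn4, 0.85 for Kcnh4, 0.78 for Kcnj2, 0.75 for Kcne1l and 0.62 for Kcnh3, with adjusted p from 2.21e-05 to 0.0472.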

How the results depend on the processing

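The counts of called genes among the 90 moved as follows, and the cause was not tested. With quantile normalization 24 were called at cerebral day 3 and 24 at cerebral day 7 in place of 15 and 13, 12 at cord day 3 and 27 at cord day 7 in place of 24 and 46, and 10 differences at day 1 and 18 at day 7 in place of 5 and 33. It also turned the Kcne1l difference at day 7 from 0.75 to -0.76. With the offset taken as exact, 23 and 27 were called at cerebral days 3 and 7, and with the allowance doubled, a setting chosen after seeing the data, 5 and 6. Over all genes the exact offset gave 3888 and 4340 calls, and the doubled allowance 713 and 700. Array weights gave 23 at cerebral day 1 in place of 15, and 11 differences at day 1. Over all genes they gave 4594 calls and 3073 differences, in place of 3341 and 2200. With cerebral controls 1 and 2 only, 5, 3 and 5 were called in the cerebrum at days 1, 3 and 7, and 2 and 4 differences at days 1 and 3 in place of 5 and 10. Over all genes the cerebral calls with those controls were 1719, 893 and 898, in place of 3341, 1642 and 1591. The differences over all genes were 1056 and 873, in place of 2200 and 1808. With cerebral controls 3 and 4 only there were 11 differences at day 1 (1966 over all genes), and with cord controls 3 and 4 only 3 (1814 over all genes). Leaving out 1 array at a time gave 12 to 16, 10 to 15 and 9 to 13 calls in the cerebrum at days 1, 3 and 7, 21 to 32, 21 to 26 and 41 to 50 in the cord, 3 to 8, 7 to 13 and 26 to 34 differences, and 40 to 49 between controls. The 3 differences at day 1 came without cerebral control 4 or cord day 1 array 2, and the 8 without cord day 1 array 4. Of 105 named changes past the test, 60 kept direction and call under every alternative run and 45 lost the call under 1 or more, among them the 1 that reversed. No paired analysis was possible because the labels number no arrays across groups.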

Other observations

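By channel class at cord day 7, 15 of the 26 pore-forming Kv genes were called lower and 0 higher, with a median log2 change of -0.91. Of the 16 auxiliary subunits 8 were lower and 2 higher (median -0.49), and of the 10 silent Kv subunits 4 were lower and 0 higher (median -0.52). Of the 7 genes of the Kcnn, Kcnt and Kcnu families 4 were lower and 1 higher (median -0.66). The 15 inward rectifiers split into 5 lower and 2 higher (median 0.05), and of the 14 two-pore leak channels 3 were lower and 1 higher (median -0.13). Over all genes 18.4% were lower and 16.3% higher. Whether the classes differed from each other was not tested.

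The Kv3 genes, whose channels let fast-spiking neurons repolarise quickly, fell in the cord at day 7: Kcnc1 by 1.04 ± 0.17 (adjusted p = 4.16e-05), Kcnc2 by 1.44 ± 0.18 (adjusted p = 3.68e-07) and Kcnc4 by 1.75 ± 0.17 (adjusted p = 1.11e-09). At cerebral day 7 their changes were 0.21, -0.09 and 0.02, none called. Of 6 markers of parvalbumin interneurons, a fast-spiking type, 5 were lower at cord day 7 (median -1.18) and 0 were called at cerebral day 7 (median -0.11). That list shares Gad1 and Gad2 with the neuronal markers and Pvalb with the skeletal muscle markers, so it does not single out those interneurons. Skeletal muscle markers averaged 0.04 to 0.65 at cord day 7, against 0.28 to 3.75 on the cord controls. The part of interneurons or of muscle in the Kv3 values was not tested.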
